A study of Mus musculus with 47 samples.

Results

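Of 38 microglial genes tested, 21 were called higher in the hippocampus of Old than of Young mice when vehicle and PF4 libraries were averaged and 0 were called lower (edgeR, adjusted p below 0.05), where 3.31% of all genes were called higher. A further 5 of the 38 had estimates below 0 that did not pass. The genes came from a list of 43 taken by name from a table of 35486 genes and fell into 3 lists, 11 homeostatic genes, 12 activation genes and 20 genes that microglia share with other myeloid cells. A row was found for 42 of them (Clec7a was not analysed here), and 38 had enough reads to be tested. PF4 (platelet factor 4, a chemokine stored in platelets) gave a difference past the test in 0 of the 38 in Old mice, where 0.0337% of all genes passed, and in 0 in Young mice, where 0% of all genes did.

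The libraries came from the hippocampus of 47 male mice on a C57BL/6J background, which the study carried through behavioural testing. The 4 groups were Young Veh (n = 13) and Young PF4 (n = 12), aged 3.75 to 5.26 months, and Old Veh (n = 12) and Old PF4 (n = 10), aged 17.4 to 20.23 months. Veh mice received the vehicle and PF4 mice received recombinant mouse PF4, both by daily injection into the peritoneum. Each library was 1 hippocampal RNA sample, so a higher level can come from more microglia or from more mRNA per cell, and these cannot be told apart in bulk tissue.

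Microglia are the resident macrophages of the brain. Their survival depends on the receptor Csf1r, and in the healthy brain they carry a homeostatic set of surface proteins, among them P2ry12, Cx3cr1 and Tmem119. P2ry12 senses nucleotides and Cx3cr1 a chemokine. Near amyloid, dying cells or degenerating myelin, microglia lower the homeostatic set and raise genes such as Cst7, Clec7a, Itgax, Axl, Lpl and Spp1. The rise depends in part on the lipid receptor Trem2 and its adaptor Tyrobp. PU.1, the product of Spi1 and a member of the ETS family, is the transcription factor that marks the myeloid lineage.

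Promoter sequences are shown for 5 members because Ctss, Laptm5 and Ly86 were the 3 genes that rose with age in both treatments, and because Hpgds and Cd53 join Ctss in holding a core PU.1 motif. The sequences are RefSeq windows of build GRCm38.p6, from 250 bases before to 50 bases after a transcription start, written 5′ to 3′ on the strand of the gene. Capitals mark the core motif GAGGAAGT or its reverse complement. The Ctss window is chr3:95526536-95526835 on the plus strand, that of Hpgds is chr6:65144681-65144980 on the minus strand and that of Cd53 is chr3:106790100-106790399 on the minus strand. The windows without a match are chr4:130913066-130913365 on the plus strand for Laptm5 and chr13:37345095-37345394 on the plus strand for Ly86.
Ctss: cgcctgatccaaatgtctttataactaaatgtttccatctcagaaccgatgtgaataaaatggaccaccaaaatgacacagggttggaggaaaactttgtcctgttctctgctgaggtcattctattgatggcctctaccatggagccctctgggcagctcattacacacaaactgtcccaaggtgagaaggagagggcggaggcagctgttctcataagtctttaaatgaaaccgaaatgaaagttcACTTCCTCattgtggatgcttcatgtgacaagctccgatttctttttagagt
Hpgds: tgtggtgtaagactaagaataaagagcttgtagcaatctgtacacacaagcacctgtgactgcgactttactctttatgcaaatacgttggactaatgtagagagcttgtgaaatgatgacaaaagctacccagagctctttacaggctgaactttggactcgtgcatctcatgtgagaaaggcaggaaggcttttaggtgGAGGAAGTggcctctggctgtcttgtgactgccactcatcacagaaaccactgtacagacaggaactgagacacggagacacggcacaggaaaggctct
Cd53: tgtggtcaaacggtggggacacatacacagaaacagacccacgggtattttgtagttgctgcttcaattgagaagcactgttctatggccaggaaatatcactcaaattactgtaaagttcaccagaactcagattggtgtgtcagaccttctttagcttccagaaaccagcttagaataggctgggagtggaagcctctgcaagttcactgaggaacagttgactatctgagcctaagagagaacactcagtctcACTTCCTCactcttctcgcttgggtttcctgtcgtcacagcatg
Laptm5: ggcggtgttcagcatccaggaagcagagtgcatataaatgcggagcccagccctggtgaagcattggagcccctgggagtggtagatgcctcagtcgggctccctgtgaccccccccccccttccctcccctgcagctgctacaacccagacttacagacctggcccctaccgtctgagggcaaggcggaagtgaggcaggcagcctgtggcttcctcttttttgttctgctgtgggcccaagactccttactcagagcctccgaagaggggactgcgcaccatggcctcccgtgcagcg
Ly86: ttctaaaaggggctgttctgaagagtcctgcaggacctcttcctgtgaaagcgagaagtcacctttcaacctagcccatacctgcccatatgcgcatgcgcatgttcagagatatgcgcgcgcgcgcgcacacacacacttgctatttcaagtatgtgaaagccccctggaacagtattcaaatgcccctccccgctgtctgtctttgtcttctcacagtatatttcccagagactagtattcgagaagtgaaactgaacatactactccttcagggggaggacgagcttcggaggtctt
Promoters were matched by symbol for 34 of the 43 genes, which gave 44 windows. The PU.1 core was found on either strand in 6 of the 44 (13.6%), those of Cd53, Ctss, Hpgds, Inpp5d, Slco2b1 and Spp1, against 1052 of 32851 windows over all genes (3.20%). The E-box of lysosomal genes, GTCACGTG, was in 0 of the 44 (2.25% of all windows). A match is a run of letters and says nothing of binding, and its absence concerns these windows alone.

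Microglial mRNA was present in every library. All 11 homeostatic genes had reads in each of the 47 libraries, and their summed level lay between 339 and 497 CPM (counts of a gene relative to library size, scaled by edgeR's TMM method). Markers of other immune cells were low by comparison. The 8 monocyte and neutrophil markers summed to at most 7.95 CPM, with Ly6c2, Camp, Plac8 and Retnlg at 0 in most libraries. The 10 lymphocyte markers summed to at most 1.71 CPM, with 8 of them, Cd3e, Cd3d and Cd3g included, at 0 in most libraries. The 8 markers of the macrophages at the brain's borders summed to between 2.72 and 19.8 CPM.

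Per length, the cathepsin Ctss was the most abundant member, at a median of 40.4 CPM per kilobase of exon over all libraries. P2ry12 followed at 24.7, Csf1r at 18.1, Tyrobp at 16.4, Cx3cr1 at 13.4 and Tmem119 at 12.5. Ctss ranged from 30.6 to 71.2 over libraries and P2ry12 from 19.3 to 36.2, so these neighbours overlapped, as did each pair of neighbours from P2ry12 down to Tmem119. Trem2 stood at 1.89, below its adaptor Tyrobp, though the 2 had similar reads over all libraries (4794 and 5414). The length was the union of all annotated exons, 4946 bases for Trem2 and 667 for Tyrobp. At the bottom were Cst7 (0.328), Ptprc (0.240), Ccl4 (0.209), Ccl3 (0.181) and Itgax (0.0227). The exon union of Ptprc is 18313 bases, where its longest transcript has 5740, so its place rests on that choice of length.

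**Figure D1:**
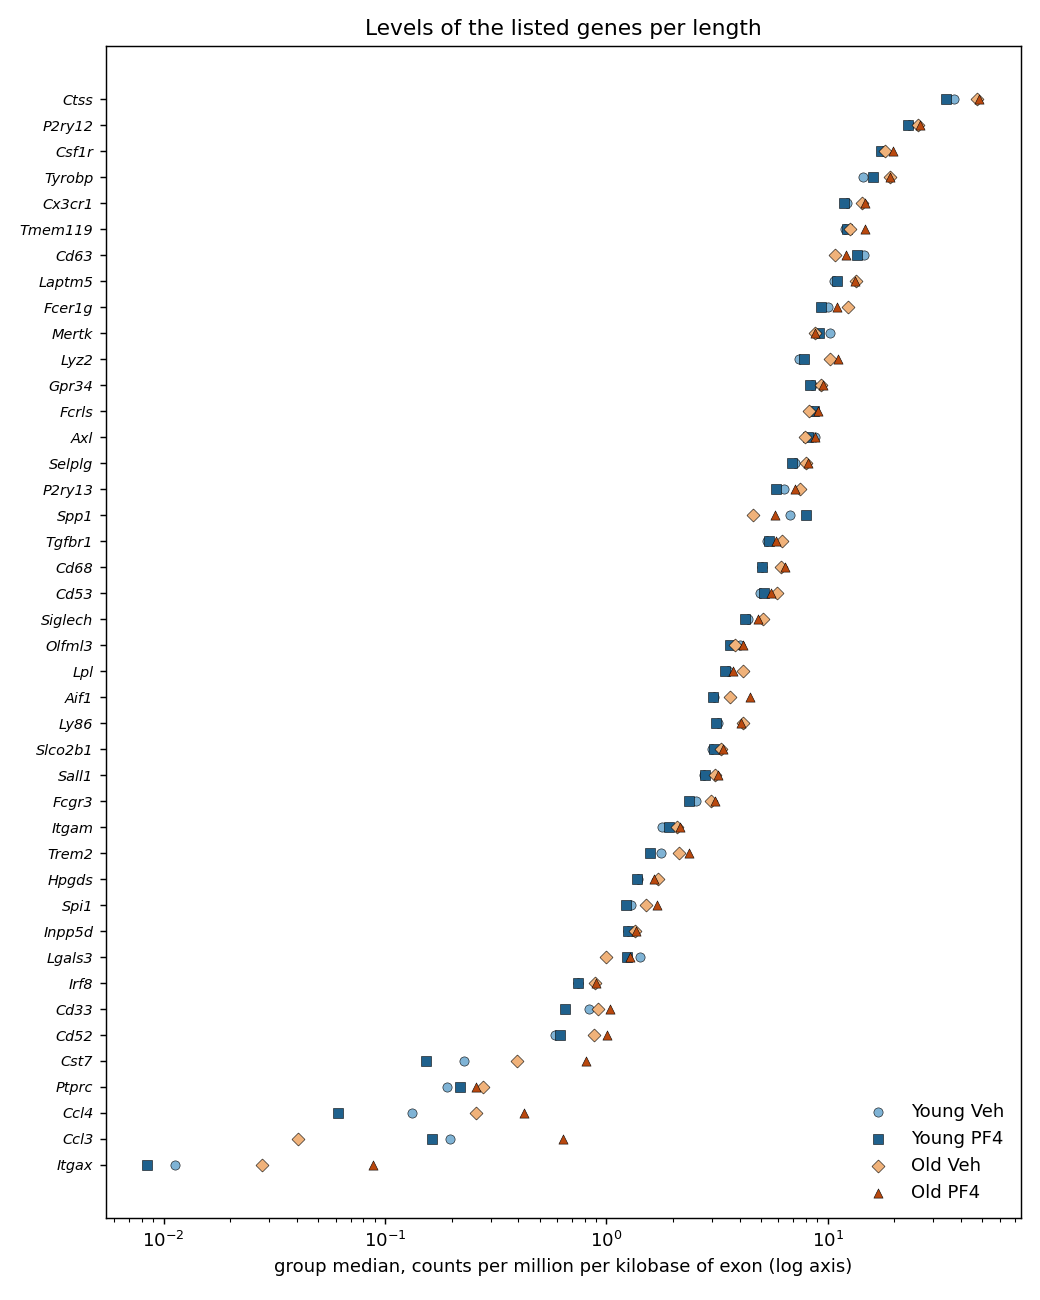
Median level of each listed gene in each of the 4 groups, in CPM per kilobase of exon on a log axis, with genes ordered by the median over all libraries. Ctss is at the top with an overall median of 40.4 and Itgax at the bottom with 0.0227, and for Ctss, Tyrobp and Trem2 both Old groups lie to the right of both Young groups.

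Whether the listed genes changed with age was asked separately in vehicle and in PF4 mice, since those comparisons share no library. In vehicle mice 6 of the 38 genes rose and 0 fell (edgeR quasi-likelihood test, adjusted p below 0.05), where 2.16% of all 17778 genes tested rose, 0.607% fell and 2.77% were called in either direction. DESeq2, which gave an adjusted p for 37 members, called 8 higher, where it called 2.94% of all genes higher. In PF4 mice 5 of the 38 rose and 0 fell, where 0.304% of all genes rose, 0.0281% fell and 0.332% were called in either direction. DESeq2 called 6 of 39 members higher, Cst7 among them, beside 0.418% of all genes. The median log2 fold change of the 38 was 0.21 in vehicle mice and 0.21 in PF4 mice, beside -0.01 and 0.00 over all genes. Laptm5, Ly86 and Ctss were called in both comparisons, which is 3 of the 6 and 3 of the 5, and over all genes 33 were called in both, of 492 and 59.

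In the GENCODE annotation of GRCm38 the gene Laptm5 spans chr4:130913125-130936141, Ly86 chr13:37345208-37419036, Ctss chr3:95526786-95556403, Trem2 chr17:48346401-48354147 and Tyrobp chr7:30413760-30417585.

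Laptm5 encodes a lysosomal membrane protein of blood cells and microglia. Its lowest, median and highest levels were 38.6, 40.3 and 46.2 CPM in Young Veh libraries, and 41.2, 50.8 and 60.6 CPM in Old Veh libraries. In PF4 mice they were 38.4, 41.9 and 47.2 CPM when Young, and 43.4, 50.1 and 68.9 CPM when Old. The groups overlapped at their edges, with 10 of 12 Old Veh libraries above every Young Veh library and 7 of 10 Old PF4 libraries above every Young PF4 library. The log2 fold change was 0.27 ± 0.05 (SE) in vehicle mice (edgeR adjusted p = 0.00190) and 0.29 ± 0.06 in PF4 mice (edgeR adjusted p = 0.00964). The call in PF4 mice was lost without the 8 libraries of lowest total (0.26, edgeR adjusted p = 0.0620) and with the 2 groups fitted alone (0.28, edgeR adjusted p = 0.0821).

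Ly86 encodes MD-1, a secreted partner of a Toll-like receptor relative. It ran from 8.84 through a median of 11.6 to 12.5 CPM in Young Veh, and from 11.9 through 15.04 to 18.8 CPM in Old Veh. With PF4 it ran from 9.51 through 11.4 to 12.7 CPM in Young mice and from 11.7 through 14.7 to 23.5 CPM in Old mice. Old Veh libraries lay above every Young Veh library in 9 of 12 cases, and Old PF4 libraries above every Young PF4 library in 8 of 10. The change was 0.38 ± 0.09 in vehicle mice (log2, edgeR adjusted p = 0.00636) and 0.42 ± 0.09 in PF4 mice (edgeR adjusted p = 0.0151). Without Old PF4 replicate 3 the second value was 0.33, with an edgeR adjusted p of 0.0683. Without the 8 libraries of lowest total both calls were lost (0.28 and 0.39, edgeR adjusted p = 0.128 and 0.0565), and with the 2 groups fitted alone the call in PF4 mice was lost (edgeR adjusted p = 0.0778).

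Ctss encodes cathepsin S, a lysosomal protease that trims the invariant chain of MHC class II. Its levels were 41.6, 50.4 and 79.2 CPM (lowest, median, highest) in Young Veh and 53.2, 64.2 and 83.8 CPM in Old Veh. They were 42.3, 46.7 and 64.0 CPM in Young PF4 and 55.7, 65.5 and 96.6 CPM in Old PF4. The whole Old Veh range lay above 11 of the 13 Young Veh libraries, and the whole Old PF4 range above 10 of the 12 Young PF4 libraries. Ctss rose by a log2 fold change of 0.32 ± 0.09 in vehicle mice (edgeR adjusted p = 0.0274) and 0.52 ± 0.09 in PF4 mice (edgeR adjusted p = 0.00179). The vehicle call was lost without Old Veh replicate 12 (0.28, edgeR adjusted p = 0.0535), with the choroid plexus or border macrophage score as a covariate, and without the 8 libraries of lowest total (0.32 to 0.34, edgeR adjusted p up to 0.0913).

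**Figure D2:**
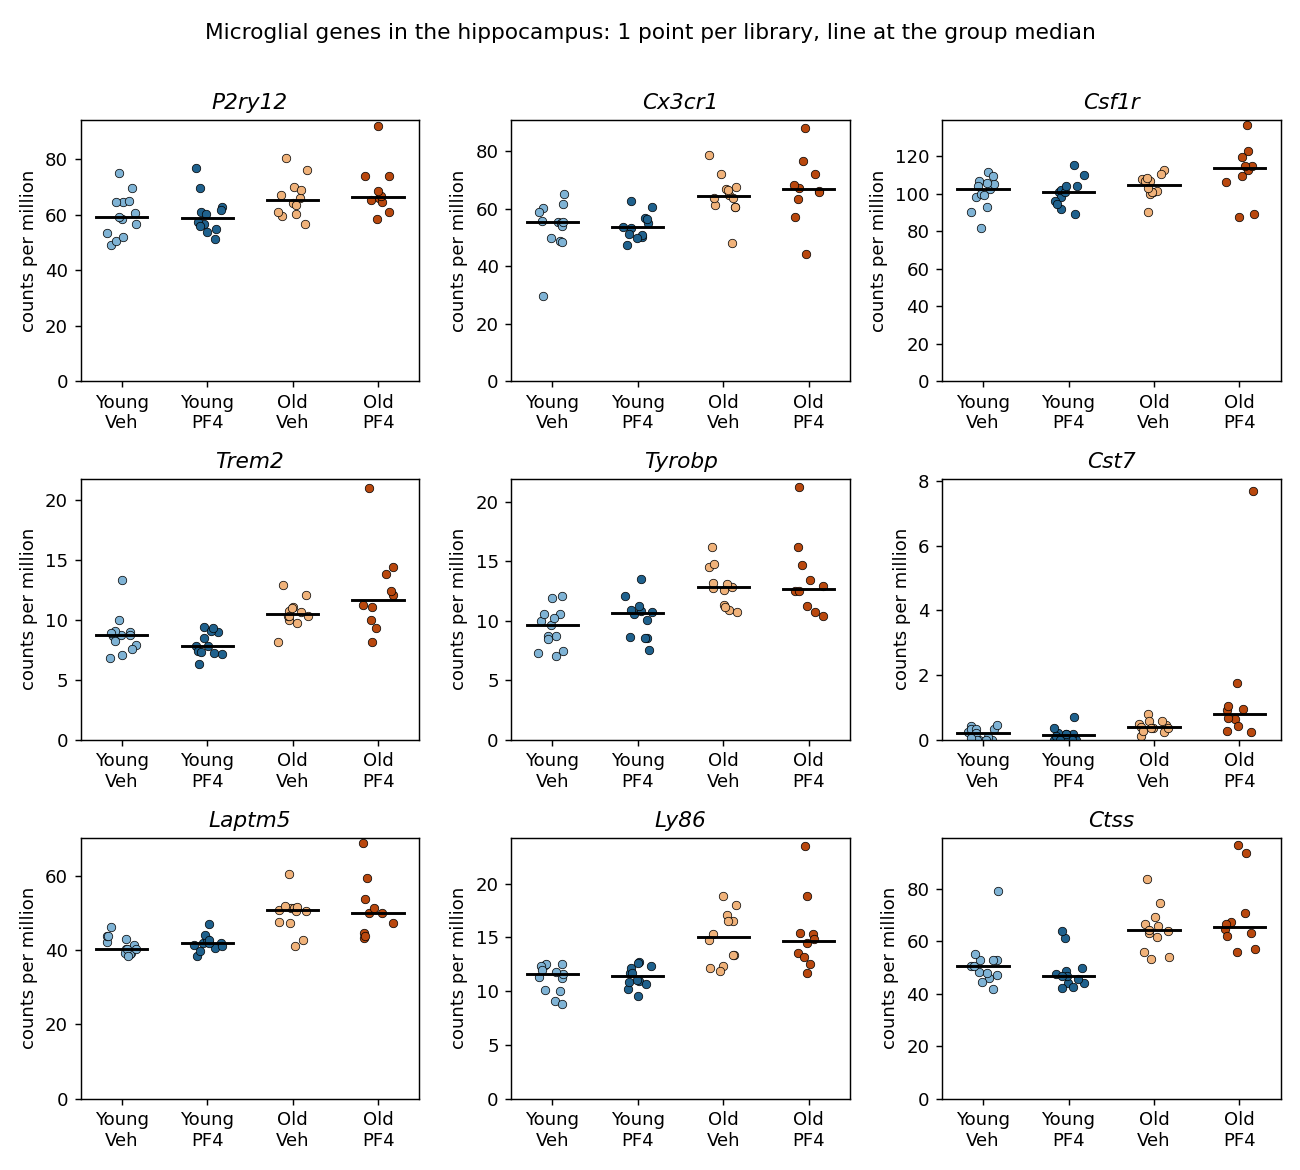
Level of 9 listed genes in CPM on axes that start at 0, with 1 point per library and a line at the group median. In the bottom row Laptm5, Ly86 and Ctss have Old medians of 50.1 to 50.8, 14.7 to 15.04 and 64.2 to 65.5 CPM, above the Young medians, while the Csf1r groups overlap, Old PF4 being the widest (87.8 to 137 CPM), and 1 Old PF4 library stands at 7.68 CPM of Cst7.

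In vehicle mice Tyrobp, Tgfbr1 and Lpl rose as well. Tyrobp, the signalling adaptor of Trem2, had 7.08, 9.64 and 12.1 CPM in Young Veh and 10.8, 12.8 and 16.2 CPM in Old Veh, and 8 of 12 Old Veh libraries lay above every Young Veh library. Its log2 fold change was 0.41 ± 0.10 (edgeR adjusted p = 0.0117). In PF4 mice it had 7.56, 10.7 and 13.5 CPM when Young and 10.4, 12.7 and 21.2 CPM when Old, a change of 0.40 ± 0.10 (edgeR adjusted p = 0.082). In PF4 mice 3 of 10 Old libraries lay above every Young one. Tgfbr1, a receptor for the TGF-β that maintains the homeostatic state, rose by 0.29 ± 0.07 (edgeR adjusted p = 0.0176). Tgfbr1 had 27.9, 34.8 and 40.6 CPM (lowest, median, highest) in Young Veh and 33.02, 40.6 and 49.2 CPM in Old Veh. PF4 mice had 27.5, 35.3 and 49.1 CPM when Young and 30.5, 38.2 and 41.8 CPM when Old. In vehicle mice 6 of 12 Old libraries lay above every Young one, and in PF4 mice the groups overlapped. Lpl, the lipoprotein lipase that neurons also make, rose by 0.24 ± 0.06 (edgeR adjusted p = 0.0225). Its levels were 30.6, 37.3 and 43.9 CPM in Young Veh and 35.2, 43.6 and 60.8 CPM in Old Veh, and 5 of 12 Old Veh libraries lay above every Young Veh library. In Young PF4 they were 31.2, 35.9 and 42.7 CPM. In PF4 mice the age changes were 0.04 ± 0.08 for Tgfbr1 and 0.07 ± 0.07 for Lpl (edgeR adjusted p = 0.953 and 0.860). Without Old Veh replicate 1 the value of Lpl was 0.19, with an edgeR adjusted p of 0.0641. Its call was also lost with the choroid plexus or border macrophage score as a covariate and without the 8 libraries of lowest total (edgeR adjusted p up to 0.119), and that of Tyrobp without those 8 libraries (0.36, edgeR adjusted p = 0.103).

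In PF4 mice Trem2 and Lyz2 rose as well. Trem2 had 6.30, 7.81 and 9.43 CPM in Young PF4 and 8.16, 11.7 and 21.1 CPM in Old PF4, with 8 of 10 Old libraries above every Young one. Its log2 fold change was 0.62 ± 0.11 (edgeR adjusted p = 0.00181). In vehicle mice Trem2 had 6.80, 8.75 and 13.4 CPM when Young and 8.19, 10.5 and 13.0 CPM when Old, with a log2 fold change of 0.27 ± 0.10 (edgeR adjusted p = 0.17). The highest Young Veh value was that of replicate 4, the next being 9.98 CPM. Trem2 was called in vehicle mice with the index of transcript-length bias described below as a covariate, and with no other covariate. Lyz2, the lysozyme of macrophages, had 4.91, 10.3 and 17.2 CPM in Young PF4 and 7.98, 14.7 and 32.1 CPM in Old PF4, and 4 of 10 Old libraries lay above every Young one. Vehicle mice had 6.13, 9.75 and 19.8 CPM when Young and 10.4, 13.5 and 19.4 CPM when Old. The change of Lyz2 in PF4 mice was 0.88 ± 0.20 (edgeR adjusted p = 0.0319), and this call held in 13 of the 22 fits that left out 1 library, with values from 0.75 (without Old PF4 replicate 3, edgeR adjusted p = 0.108) to 0.98. The difference between the age changes in the 2 treatments did not pass the test for any of the 38 genes, as given with the PF4 comparisons.

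**Figure D3:**
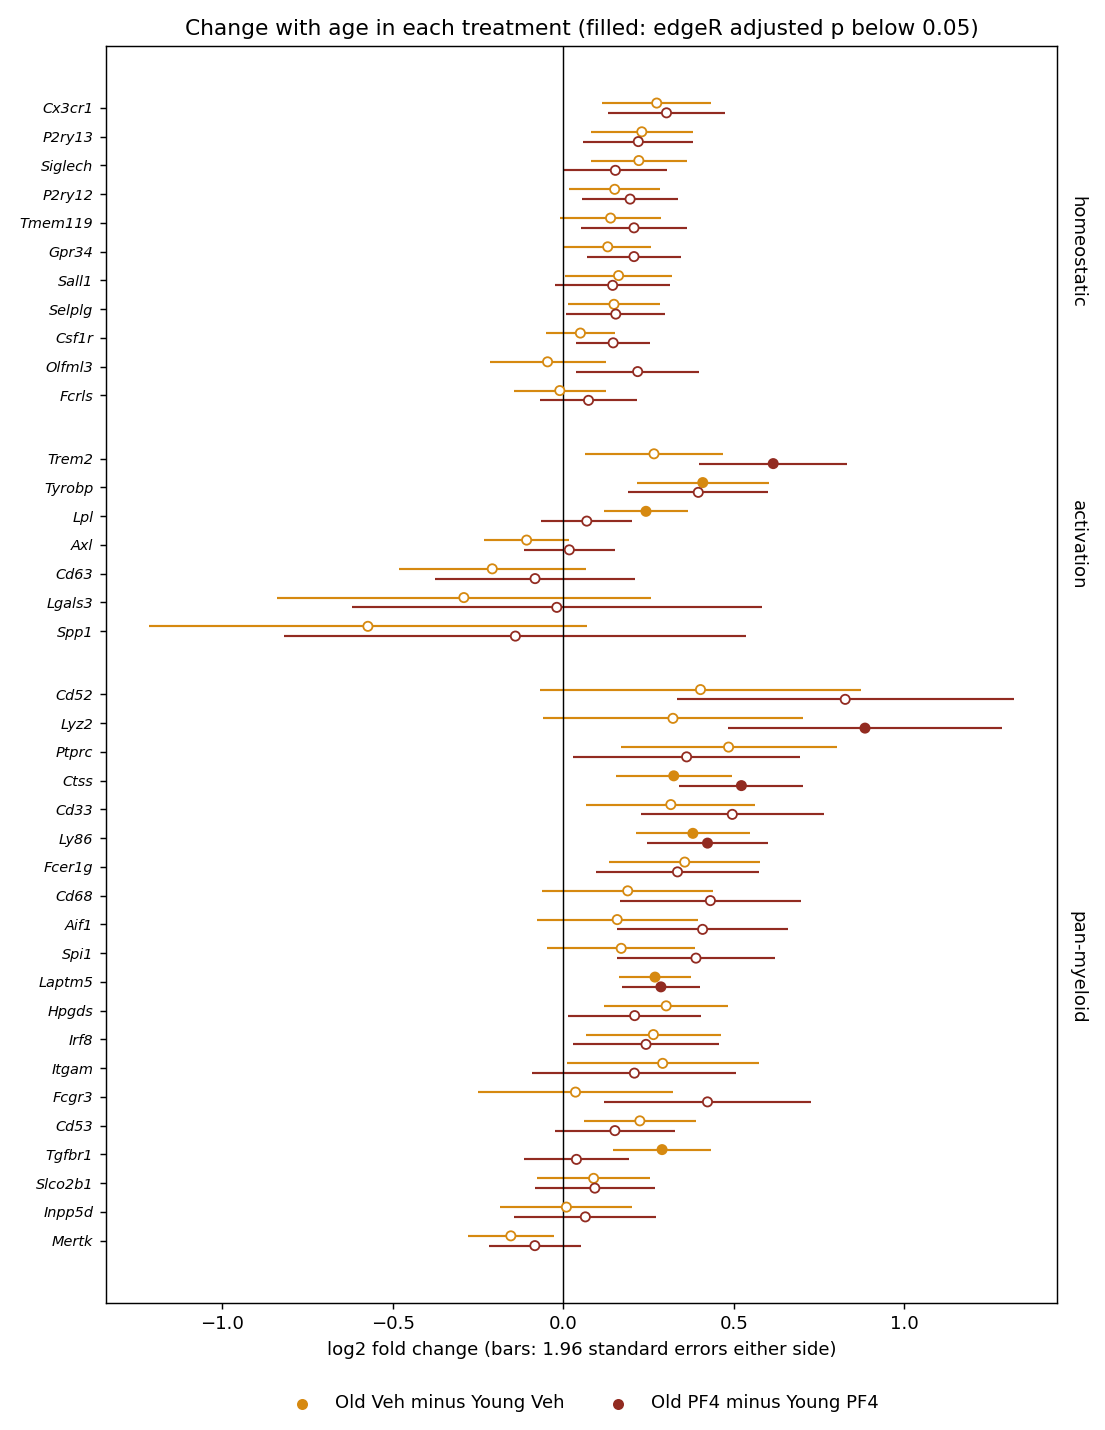
Log2 fold change with age of the 38 tested genes by list, in vehicle mice (orange) and in PF4 mice (red), with bars for the 95% interval and filled points where the edgeR adjusted p is below 0.05. Laptm5, Ly86 and Ctss are filled in both colours, 31 of the 38 genes lie above 0 in both, and the bars of Spp1, Lgals3 and Cd52 are the widest.

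Of the 38 genes, 31 were higher in Old mice in both treatments and 4 were lower in both, while over all 17778 genes 30.6% were higher in both. No gene of those 4 passed the edgeR test. Spp1 (osteopontin) differed by -0.57 ± 0.33 in vehicle mice and -0.14 ± 0.35 in PF4 mice (log2), and Mertk, a receptor for phosphatidylserine bridges, by -0.15 ± 0.06 and -0.08 ± 0.07. The other two were Cd63 and Lgals3, described with the choroid plexus.

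Averaging the age change over both treatments used all 47 libraries, so it is no further sample beside the 2 comparisons above. It called 21 of the 38 genes, all higher in Old mice, where 3.31% of all genes rose, 1.41% fell and 4.71% were called in either direction, and DESeq2 called 24 of 39 members higher, beside 3.32% of all genes. The homeostatic list gave 5 of 11, the activation list 3 of the 7 tested, and the shared myeloid list 13 of 20. Median log2 fold changes were 0.17, -0.04 and 0.28 for the 3 lists, beside -0.00 over all genes. Markers of other brain cells moved in the same comparison. Of 8 oligodendrocyte markers 2 were called higher, Mbp (0.21 ± 0.05) and Opalin (0.33 ± 0.07), at a median of 0.15 with all 8 above 0, and of 8 astrocyte markers 2 were called higher, Slc1a2 (0.16 ± 0.02) and Gfap (0.38 ± 0.06), at a median of 0.02. The medians of 8 neuronal and 8 endothelial markers were 0.04 and -0.06. Their part in the members' changes was not tested.

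Among the homeostatic genes, Cx3cr1, the receptor for the neuronal chemokine fractalkine, rose most. It ran from 29.6 through a median of 55.2 to 65.1 CPM in Young Veh, and from 48.1 through 64.3 to 78.8 CPM in Old Veh. In PF4 mice it ran from 47.2 through 53.4 to 62.6 CPM when Young and from 44.2 through 66.7 to 87.9 CPM when Old, and 12 of the 22 Old libraries lay above every Young one. The averaged log2 fold change was 0.29 ± 0.06, a 1.22-fold rise (edgeR adjusted p = 0.00154).

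P2ry12, the ADP receptor that directs microglial processes, rose by a smaller step of 0.17 ± 0.05 (edgeR adjusted p = 0.0290), or 1.13-fold. Its medians were 59.1 CPM in Young Veh, 58.9 in Young PF4, 65.2 in Old Veh and 66.4 in Old PF4, within group ranges of 49.0 to 75.1, 51.4 to 77.0, 56.5 to 80.7 and 58.6 to 92.1 CPM. The ranges overlapped broadly, with 2 of 22 Old libraries above every Young one. Its relative P2ry13 rose by 0.23 ± 0.06 (edgeR adjusted p = 0.00976), the lectin Siglech by 0.19 ± 0.05 (edgeR adjusted p = 0.0263) and the lysophosphatidylserine receptor Gpr34 by 0.17 ± 0.05 (edgeR adjusted p = 0.0267).

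P2ry13 had 11.9, 15.98 and 19.1 CPM (lowest, median, highest) in Young Veh and 13.1, 18.98 and 22.2 CPM in Old Veh. The levels were 11.9, 14.8 and 19.3 CPM in Young PF4 and 15.3, 18.01 and 19.9 CPM in Old PF4. Both Old medians lay above both Young medians, with overlapping ranges. Siglech had 12.3, 14.8 and 16.7 CPM (lowest, median, highest) in Young Veh and 14.5, 17.2 and 18.9 CPM in Old Veh. In Young PF4 the values were 11.3, 14.3 and 19.7 CPM, and in Old PF4 12.1, 16.4 and 21.6 CPM. The same held for Siglech, whose call was lost without Old PF4 replicate 1 or 5 (edgeR adjusted p up to 0.0608). Gpr34 had 14.9, 17.8 and 20.2 CPM (lowest, median, highest) in Young Veh and 15.7, 19.5 and 22.9 CPM in Old Veh. With PF4 it had 14.2, 17.3 and 20.6 CPM in Young mice and 16.7, 19.9 and 25.01 CPM in Old mice. For Gpr34 the Old medians were likewise the higher, and the ranges overlapped. With the choroid plexus score as a covariate, the calls of P2ry12, P2ry13, Siglech and Gpr34 were lost and that of Cx3cr1 held. Those of P2ry12, Siglech and Gpr34 were also lost with the border macrophage score and without the 8 libraries of lowest total (edgeR adjusted p up to 0.176).

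The other 6 homeostatic genes did not pass the edgeR test. Tmem119, a membrane protein that marks microglia, had 22.9, 27.7 and 33.2 CPM (lowest, median, highest) in Young Veh, 21.8, 28.2 and 33.96 CPM in Young PF4, 23.8, 29.2 and 37.5 CPM in Old Veh and 24.7, 34.1 and 37.7 CPM in Old PF4. All groups overlapped, with a log2 difference of 0.17 ± 0.05 (edgeR adjusted p = 0.054), and DESeq2 called it (adjusted p = 0.0381). Csf1r, the receptor on which microglial survival depends, had 82.0, 102 and 112 CPM (lowest, median, highest) in Young Veh, 89.4, 101 and 115 CPM in Young PF4, 90.1, 105 and 113 CPM in Old Veh and 87.8, 114 and 137 CPM in Old PF4. The 4 groups overlapped, and Old PF4 was spread the widest, with 6 of its 10 libraries above every Old Veh library and 2 below every one. The log2 difference of Csf1r with age was 0.10 ± 0.04 (edgeR adjusted p = 0.126), and 15.1% of its exon bases are shared with Hmgxb3. Sall1, Selplg, Olfml3 and Fcrls differed by 0.15, 0.15, 0.09 and 0.03 (log2), and did not pass either.

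Within the activation list the called genes were Trem2, Tyrobp and Lpl. Trem2 rose by 0.44 ± 0.08, or 1.36-fold (edgeR adjusted p = 0.000105), Tyrobp by 0.40 ± 0.07, or 1.32-fold (edgeR adjusted p = 0.000190), and Lpl by 0.16 ± 0.05 (edgeR adjusted p = 0.0384). The call of Lpl held in 30 of the 47 fits that left out 1 library (0.13 to 0.17, edgeR adjusted p up to 0.0810). All 22 Old libraries lay above the Young median of Tyrobp, and 20 of 22 above that of Trem2. Axl, a receptor tyrosine kinase that takes up dying cells, had 28.2, 44.2 and 48.99 CPM (lowest, median, highest) in Young Veh, 35.2, 41.03 and 52.8 CPM in Young PF4, 31.8, 39.7 and 43.4 CPM in Old Veh and 34.2, 44.3 and 47.7 CPM in Old PF4, and a log2 difference of -0.04 ± 0.05 (edgeR adjusted p = 0.67). Spp1 had 5.02, 11.1 and 39.3 CPM (lowest, median, highest) in Young Veh, 3.96, 13.2 and 21.9 CPM in Young PF4, 3.99, 7.61 and 24.1 CPM in Old Veh and 4.96, 9.57 and 33.7 CPM in Old PF4, wide ranges that overlapped, with a log2 difference of -0.36 ± 0.24 (edgeR adjusted p = 0.44).

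Cst7, Itgax, Ccl3 and Ccl4 did not pass the filter on low counts, with 259, 117, 118 and 101 reads over all libraries. Cst7, an inhibitor of cathepsins, had a median of 1 read in Young Veh, 2 in Young PF4, 3 in Old Veh and 6.5 in Old PF4, and was at 0 in 4 of 13, 4 of 12, 0 of 12 and 0 of 10 libraries. With no count filter its averaged log2 fold change was 2.01 ± 0.38 (edgeR adjusted p = 0.000587). Old PF4 replicate 3 held 93 of the 259 reads (7.68 CPM, against 0.227 to 1.77 in the other 9 Old PF4 libraries). Without that library the averaged change was 1.51 ± 0.31 (edgeR adjusted p = 0.00250), while the change in PF4 mice went from 2.83 (edgeR adjusted p = 0.00301) to 1.83 (edgeR adjusted p = 0.0911). Itgax, the integrin subunit CD11c, was at 0 in 6, 6, 5 and 0 libraries of Young Veh, Young PF4, Old Veh and Old PF4. Its reads ran from 0 to 5, 0 to 7, 0 to 10 and 1 to 23 in that order, with an averaged log2 change of 1.37 ± 0.44 (edgeR adjusted p = 0.0827). Ccl3 and Ccl4, chemokines of activated myeloid cells, had values of 0.82 ± 0.45 and 1.25 ± 0.41 (edgeR adjusted p = 0.387 and 0.0900).

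The 13 called genes of the shared myeloid list included the lysosomal genes Laptm5, Ctss and Cd68, the Fc receptor chain Fcer1g, the sialic acid receptor Cd33 and the leukocyte phosphatase Ptprc. Laptm5 rose 1.21-fold (edgeR adjusted p = 5.47e-06), Ctss 1.34-fold (edgeR adjusted p = 1.22e-05) and Ly86 1.32-fold (edgeR adjusted p = 1.94e-05). The myeloid transcription factor genes Spi1 (PU.1) and Irf8 rose by 0.28 ± 0.08 and 0.25 ± 0.07 (log2, edgeR adjusted p = 0.0310 and 0.0341). Lyz2 rose by 0.60 ± 0.14 (edgeR adjusted p = 0.00567) and Cd52, a surface peptide of leukocytes with 14.5% of its exon bases shared with Crybg2, by 0.61 ± 0.17 (edgeR adjusted p = 0.0273).

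Spi1 had 2.65, 3.49 and 4.51 CPM (lowest, median, highest) in Young Veh and 2.18, 4.07 and 5.69 CPM in Old Veh. PF4 mice had 2.30, 3.32 and 5.09 CPM when Young and 3.51, 4.57 and 5.52 CPM when Old. The groups of this gene of few reads overlapped, with both Old medians the higher. Irf8 had 4.54, 5.23 and 6.37 CPM (lowest, median, highest) in Young Veh and 4.40, 6.26 and 8.68 CPM in Old Veh. The levels were 4.09, 5.24 and 6.65 CPM in Young PF4 and 4.21, 6.35 and 8.26 CPM in Old PF4. Its Old medians were the higher as well. Cd52 had 0, 0.697 and 1.19 CPM (lowest, median, highest) in Young Veh and 0.546, 1.05 and 1.75 CPM in Old Veh. In Young PF4 the values were 0, 0.737 and 1.09 CPM, and in Old PF4 0.294, 1.19 and 2.15 CPM. Cd52 had the lowest CPM of the called genes, and 10 of 22 Old libraries lay above every Young one. Over the 47 fits that left out 1 library, edgeR called Irf8 in 35 (0.23 to 0.28, adjusted p up to 0.0636). Spi1 was lost without Old Veh replicate 12 (edgeR adjusted p = 0.0599), and Cd52 without Old PF4 replicate 3 or 7 (edgeR adjusted p up to 0.0542).

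Cd33 rose by 0.41 ± 0.09 (edgeR adjusted p = 0.00496), Fcer1g by 0.35 ± 0.08 (edgeR adjusted p = 0.00739), Ptprc by 0.42 ± 0.12 (edgeR adjusted p = 0.0235), Hpgds (a prostaglandin D synthase) by 0.26 ± 0.07 (edgeR adjusted p = 0.0178), Cd68 by 0.31 ± 0.09 (edgeR adjusted p = 0.0388) and Aif1 (IBA1, the usual histological marker of microglia) by 0.28 ± 0.09 (edgeR adjusted p = 0.0487). Cd33 had 3.95, 6.52 and 8.42 CPM (lowest, median, highest) in Young Veh and 5.80, 7.10 and 9.54 CPM in Old Veh. With PF4 it had 3.86, 5.07 and 7.80 CPM in Young mice and 4.59, 8.05 and 11.2 CPM in Old mice. The 4 groups of Cd33 overlapped. Fcer1g had 5.31, 8.74 and 11.7 CPM (lowest, median, highest) in Young Veh and 7.88, 10.8 and 16.1 CPM in Old Veh. PF4 mice had 6.25, 8.15 and 10.2 CPM when Young and 6.38, 9.59 and 17.8 CPM when Old. Old Veh had the higher median of the Old groups. Ptprc had 1.30, 3.50 and 5.34 CPM (lowest, median, highest) in Young Veh and 3.63, 5.08 and 8.28 CPM in Old Veh. The levels were 2.32, 4.0003 and 6.75 CPM in Young PF4 and 3.75, 4.70 and 9.09 CPM in Old PF4. Both Old medians lay above both Young medians.

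Hpgds had 5.57, 8.94 and 10.7 CPM (lowest, median, highest) in Young Veh and 8.76, 10.99 and 12.3 CPM in Old Veh. In Young PF4 the values were 7.43, 8.84 and 9.91 CPM, and in Old PF4 7.71, 10.6 and 15.3 CPM. The groups overlapped, with the Old medians higher. Cd68 had 4.86, 6.36 and 9.97 CPM (lowest, median, highest) in Young Veh and 5.90, 7.75 and 8.93 CPM in Old Veh. With PF4 it had 3.69, 6.38 and 10.9 CPM in Young mice and 6.38, 8.07 and 14.95 CPM in Old mice. The highest Old PF4 value was that of replicate 3. Aif1 had 4.01, 4.70 and 8.67 CPM (lowest, median, highest) in Young Veh and 3.67, 5.57 and 7.82 CPM in Old Veh. PF4 mice had 2.45, 4.64 and 7.73 CPM when Young and 4.65, 6.80 and 8.26 CPM when Old. The ranges of Aif1 overlapped throughout. Several of these calls lay near the threshold. Over the 47 fits that left out 1 library, edgeR called Aif1 in 13 (0.25 to 0.33, adjusted p up to 0.0774) and Cd68 in 35 (0.25 to 0.35, adjusted p up to 0.0803). Ptprc was lost once, without Old PF4 replicate 3 (edgeR adjusted p = 0.0524).

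Itgam, whose exon bases are 68.7% shared with Gm49368, Fcgr3, Cd53, Tgfbr1, Slco2b1, Inpp5d and Mertk did not pass, with differences from -0.12 (Mertk) to 0.25 (Itgam).

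The age changes were next set against that of Csf1r in the same library, as the log2 ratio of each gene's reads to those of Csf1r. Over 37 genes, 13 ratios differed between Old and Young mice after adjustment (permutation of age within treatment, 100000 draws, two-sided, Benjamini-Hochberg over 37), 11 higher and 2 lower. The ratio of Ly86 was higher by 0.31 and that of Ctss by 0.33 (permutation adjusted p = 0.000370 for both), and those of Tyrobp and Trem2 by 0.32 and 0.34 (permutation adjusted p = 0.000444 for both). Cx3cr1 differed by 0.19 (permutation adjusted p = 0.000678) and P2ry12 by 0.08 (permutation adjusted p = 0.32). The 2 lower ratios were those of Mertk, -0.20 (permutation adjusted p = 0.00692), and Axl, -0.14 (permutation adjusted p = 0.0121). Over all genes 17.3% had an age difference of this ratio at least as large, relative to its standard error, as the weakest of the 13, 0.934% higher and 16.3% lower, so 2 lower of 37 members is under the background share. The ratio does not say whether Csf1r itself was constant.

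Other genes of the microglial programme were counted from lists of neighbours. Of 29 further microglial genes tested, 8 rose in the averaged comparison and 0 fell, beside 3.31% of all genes that rose. Among these were the complement genes C1qa, C1qb and C1qc (0.35 ± 0.05, 0.34 ± 0.05 and 0.26 ± 0.06), the integrin chain Itgb2 (0.48 ± 0.10), the transcription factors Ikzf1 (0.35 ± 0.09) and Runx1 (0.50 ± 0.15), and the lysosomal nuclease Pld4 (0.25 ± 0.06). Of 15 further activation genes tested, 4 rose and 0 fell against the same share, the lysosomal glycoprotein Gpnmb (0.48 ± 0.10), Ccl6 (0.55 ± 0.14), the ferritin chain Fth1 (0.17 ± 0.04) and B2m (0.26 ± 0.05). Of 16 ligands and signalling partners tested, among them Csf1, Il34, Cx3cl1, Tgfb1, Gas6 and Apoe, edgeR called 0 in each of the 6 comparisons. With 4.71% of all genes called in the averaged comparison, 0 of 16 is near the background.

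The question of the PF4 comparisons was whether treatment moved these genes at either age. In Old mice edgeR called 0 of the 38, where it called 0.0337% of all genes (6 of 17778), 0.0112% higher and 0.0225% lower. At an unadjusted p below 0.05 there were 2 members, a share near the 6.20% of all genes. DESeq2 also called 0 members, while over all genes it called 5 higher (0.0361%) and 19 lower. The median log2 fold change of the 38 was 0.06, beside 0.01 over all genes, and without Old PF4 replicate 3 it was -0.01.

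Among the 38 genes that passed the count filter Lpl had the smallest p. Its levels were 35.2, 43.6 and 60.8 CPM in Old Veh and 30.8, 39.1 and 47.1 CPM in Old PF4, so the groups overlapped, with 3 of 10 Old PF4 libraries below every Old Veh library. The log2 difference was -0.20 ± 0.07 (unadjusted edgeR p = 0.00457, adjusted p = 0.485). Lyz2 differed by 0.41 ± 0.20 (edgeR adjusted p = 0.798) and Tgfbr1 by -0.15 ± 0.08 (edgeR adjusted p = 0.826). For 4 abundant genes the 95% intervals of the PF4 difference in Old mice were -0.08 to 0.15 for Laptm5, -0.01 to 0.20 for Csf1r, -0.09 to 0.20 for P2ry12 and -0.06 to 0.25 for Tmem119, while that of Spp1 ran from -0.56 to 0.83.

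Among the 4 genes below the count filter, the fit with no filter gave 3 at an unadjusted p below 0.05 in Old mice, all higher with PF4, and 0 past the adjusted threshold. Over all 42 members that fit gave 5 at an unadjusted p below 0.05, beside 6.73% of 27514 genes. Cst7 differed by 1.75 ± 0.47 (unadjusted edgeR p = 0.000418, adjusted p = 0.244), Ccl3 by 1.61 ± 0.62 (unadjusted edgeR p = 0.0117, adjusted p = 0.620) and Itgax by 1.26 ± 0.59 (unadjusted edgeR p = 0.0374, adjusted p = 0.722). Without Old PF4 replicate 3 these values were 0.75, 1.17 and 0.78 (unadjusted edgeR p = 0.0812, 0.0742 and 0.215).

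In Young mice edgeR called 0 of the 38 and 0% of all genes, with 0 members at an unadjusted p below 0.05 and 0 called by DESeq2. The median log2 fold change was -0.02, beside -0.01 over all genes. The smallest p values belonged to Olfml3 (-0.14 ± 0.09), Cd33 (-0.19 ± 0.13) and Trem2 (-0.14 ± 0.10), each with an edgeR adjusted p of 1.00. The 95% interval was -0.09 to 0.13 for Laptm5 and -0.12 to 0.14 for P2ry12.

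The test of whether the PF4 effect differed between ages, which is also the test of whether the age change differed between treatments, called 0 of the 38 and 0% of all genes (edgeR), and DESeq2 called 0 members. At an unadjusted p below 0.05 there were 3 members, beside 3.98% of all genes. Trem2 differed by 0.35 ± 0.15 (unadjusted edgeR p = 0.0252), Tgfbr1 by -0.25 ± 0.11 (unadjusted edgeR p = 0.0239) and Olfml3, a secreted protein of microglia, by 0.26 ± 0.13 (unadjusted edgeR p = 0.0421), with an edgeR adjusted p of 1.00 for each. Olfml3 had 18.9, 24.8 and 35.1 CPM (lowest, median, highest) in Young Veh and 17.5, 23.6 and 32.5 CPM in Old Veh. The levels were 17.5, 22.3 and 26.2 CPM in Young PF4 and 18.9, 25.7 and 31.7 CPM in Old PF4. All 4 groups of Olfml3 overlapped. Without Old PF4 replicate 3 the value of Trem2 was 0.22. With no count filter Cst7 (1.64 ± 0.80, unadjusted edgeR p = 0.0450) and Ccl3 (2.07 ± 0.89, unadjusted edgeR p = 0.0237) were below 0.05 as well, and without that library both were above it (p = 0.335 and 0.0748).

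**Figure D4:**
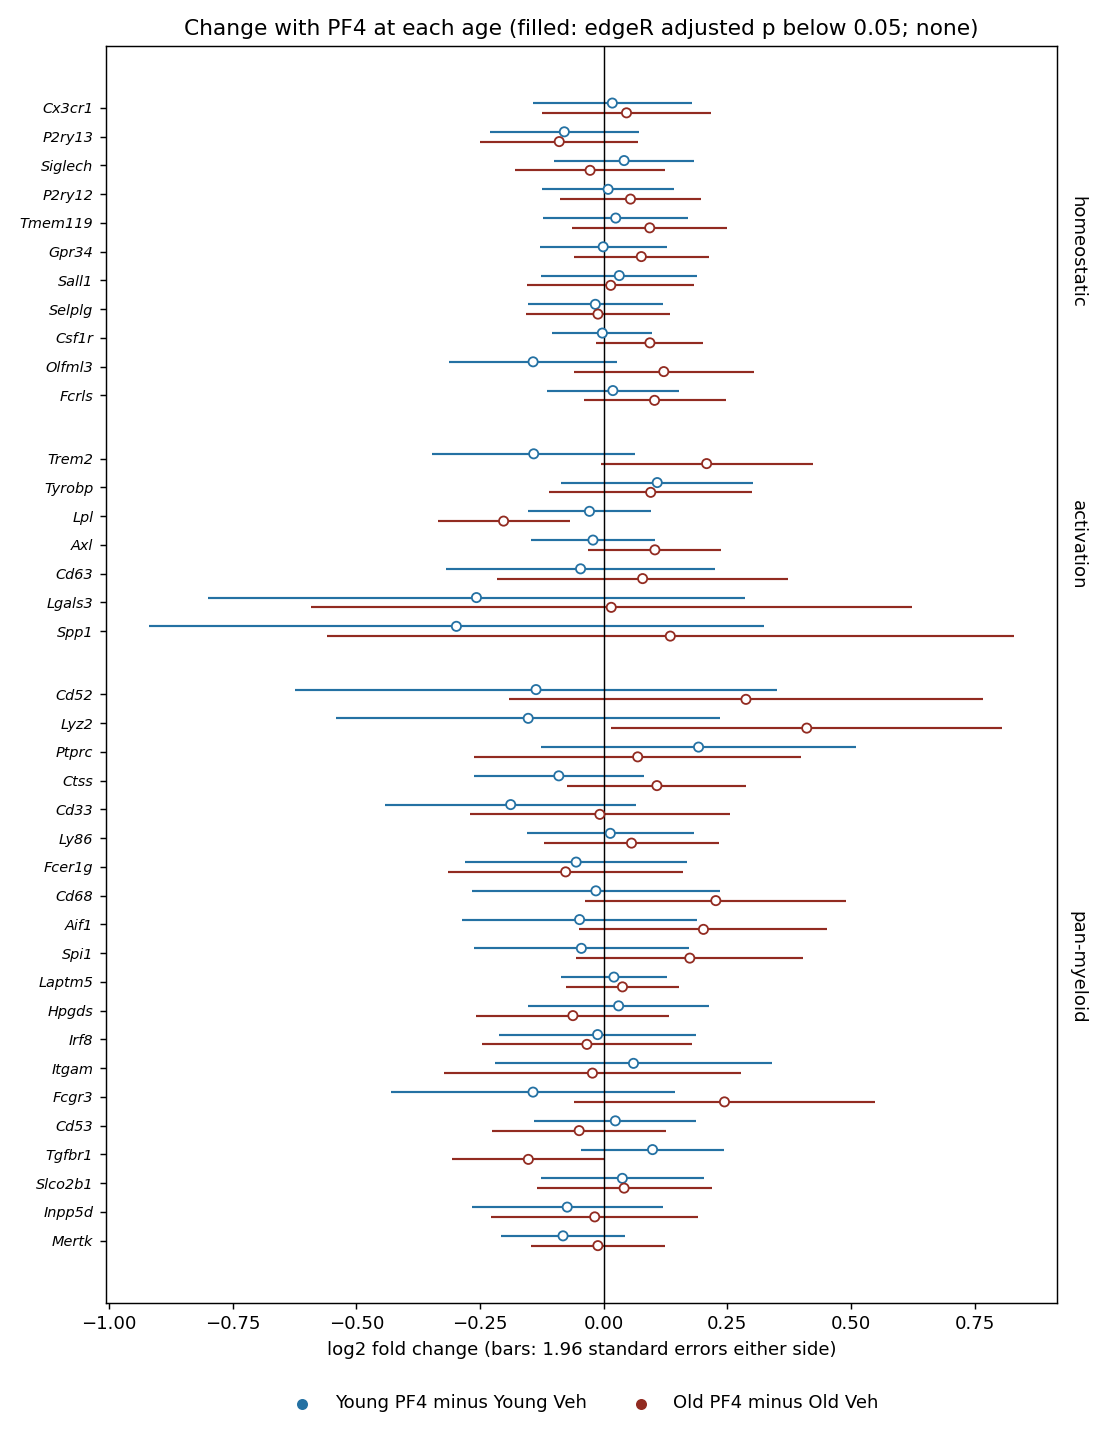
Log2 fold change with PF4 of the 38 tested genes by list, in Young mice (blue) and Old mice (red), with bars for the 95% interval. All points are open, since 0 genes had an edgeR adjusted p below 0.05, and Lpl in Old mice, at -0.20, has a bar from -0.34 to -0.07.

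Old PF4 replicate 3 held many of the highest values of these genes. The same count over all genes was not made, for this or any other library. Among the 10 Old PF4 libraries replicate 3 was the highest for 18 of the 38 tested genes, and among all 47 libraries for 13, including Trem2 (21.1 CPM), Tyrobp (21.2 CPM), Cd68 (14.95 CPM) and Lyz2 (32.1 CPM). The other 9 Old PF4 libraries reached at most 14.4, 16.2, 12.5 and 26.5 CPM for these 4 genes. Without it 3 members were called in PF4 mice with age, Trem2, Laptm5 and Ctss, and 16 in the averaged comparison, 0 of them lower in Old mice. In those fits 0.224% and 4.52% of all genes were called. Young Veh replicate 4 was the highest of its group for 12 of the 38 genes, P2ry12, Trem2 and Ctss among them. Its index of transcript-length bias (the centred log2 level of genes with long transcripts less that of genes with short ones) was -0.35, the lowest of all libraries and below the next of its group at -0.08. Without it 9 members were called with age in vehicle mice and 25 in the averaged comparison. The share of all genes called without Young Veh replicate 4 is not given here. Over the fits that each left out a library, 356 to 593 of all genes were called in vehicle mice, against 492 with every library. In the averaged comparison 674 to 1092 were called, against 838. Whether the rise to 9 and 25 was particular to the members was not tested.

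The tissue of the libraries differed in its content of choroid plexus, the secretory epithelium that lies beside the hippocampus in the ventricle. The 10 choroid plexus markers, Ttr among them, summed to between 12.0 and 4259 CPM, with a median of 59.4 CPM in Old and 2216 CPM in Young libraries. Their median log2 difference with age was -0.98, none of the 10 passing the edgeR test. Border macrophage markers had a median of -0.53 over 5 tested, 0 of them called. With the border macrophage score as a covariate 12 of the 38 members were called in the averaged comparison, all higher in Old mice, where 425 of all genes were called higher and 122 lower.

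Over the 38 genes and 47 libraries, with group means removed, 3 correlated with the mean log2 level of the choroid plexus markers (permutation within groups, 100000 draws, Benjamini-Hochberg over 38 genes), and all 3 belonged to the activation list. Correlations at least as large as the weakest of the 3 were found in 6.79% of 17768 genes, so 3 of 38 is near the background. Cd63, a tetraspanin of late endosomes that many cells make, had r = 0.812 and rho = 0.823 (permutation adjusted p = 0.00019 for both), and Lgals3 (galectin-3) had r = 0.786 and rho = 0.744 (permutation adjusted p = 0.00019 for both). Both rest on the smallest p the draws can give, 1e-05. For Spp1 the values were r = 0.460 (permutation adjusted p = 0.0255) and rho = 0.478 (permutation adjusted p = 0.0152). Without the 2 libraries farthest from the median score r was 0.799, 0.752 and 0.446.

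The score had its widest gap between 3.35 and 4.17, with 23 libraries below and 24 above. Within these sets r was 0.434 and 0.720 for Cd63 and 0.450 and 0.738 for Lgals3, but 0.288 and -0.04 for Spp1. The scores above the gap span less, from 4.17 to 6.13, than those below it, from -0.13 to 3.35. The sets were not compared by a test. Within the 4 groups r ran from 0.798 to 0.853 for Cd63, from 0.690 to 0.921 for Lgals3 and from 0.344 to 0.528 for Spp1. Ctss had r = -0.04 (permutation adjusted p = 0.854) and Trem2 r = -0.27 (permutation adjusted p = 0.288).

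**Figure D5:**
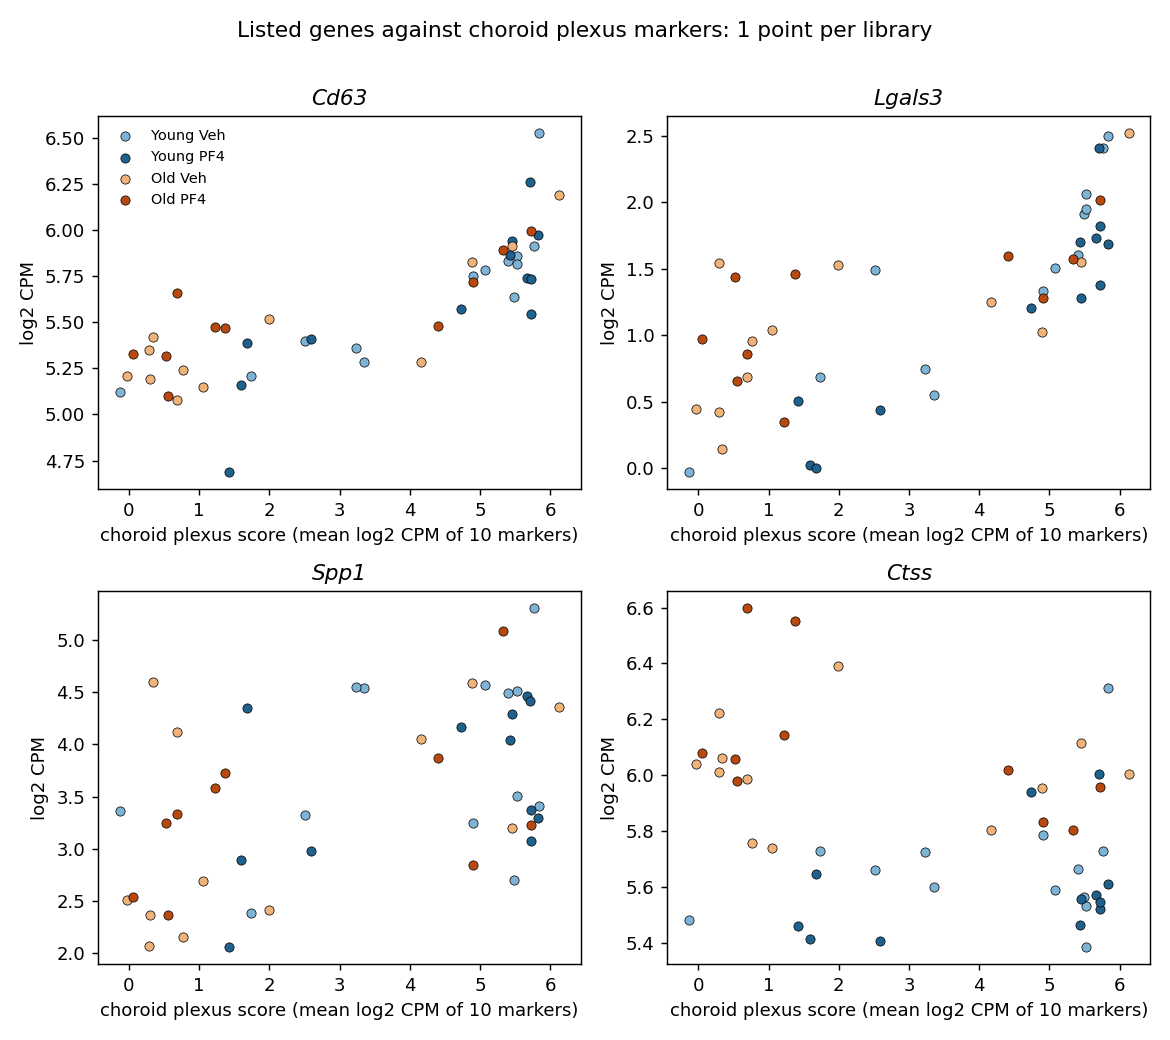
Log2 CPM of 4 listed genes against the mean log2 CPM of 10 choroid plexus markers, with 1 point per library in the colour of its group. Cd63 and Lgals3 climb with the score (r = 0.812 and 0.786 with group means removed), Spp1 less so (0.460), and for Ctss, at -0.04, most Old libraries lie above most Young ones.

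With the choroid plexus score as a covariate the averaged comparison called 12 of the 38 members, all higher in Old mice, where it called 460 of all 17778 genes higher and 198 lower. The members were at a median log2 fold change of 0.22. The 12 included Cx3cr1, Trem2, Tyrobp, Fcer1g, Ly86, Laptm5, Ctss, Cd33 and Lyz2. P2ry12 (0.16, edgeR adjusted p = 0.0996), P2ry13, Siglech and Gpr34 were not among them. In that fit the differences of Cd63 and Lgals3 with age were 0.13 and 0.39, where they were -0.15 and -0.16 without it, and all 4 values missed the edgeR threshold (adjusted p = 0.307, 0.147, 0.47 and 0.756). Of the 21 genes called, 9 were called in every setting that tested them other than those leaving out 1 library, and these were Cd33, Ctss, Cx3cr1, Fcer1g, Laptm5, Ly86, Lyz2, Trem2 and Tyrobp. Library numbers in the labels ran from 1 to 12 in Old Veh, 13 to 23 in Old PF4 and 24 to 48 in Young mice, so that their order and age cannot be told apart, nor their order and PF4 among Old mice.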

How the data were processed

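Hippocampal RNA was sequenced from 47 mice in 4 groups, which were taken from the sample labels. Per the labels, cDNA was made with Smart-Seq2 and libraries with Nextera XT without strand information, reads were trimmed with Trim Galore 0.3.7 and aligned with STAR 2.5.3a to GRCm38, and DESeq2 was used; the counting tool and annotation are not given in the sources used here. The authors deposited raw counts per gene, with totals of 2242879 to 21112908 per library (median 10374007), which limits genes of few reads. Replicates are taken as separate mice from the labels, and p-values measure the spread between these mice.

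Genes passing filterByExpr (17778) were fitted in 1 model of the 4 groups with edgeR 4.0.16 (R 4.3.3, TMM, quasi-likelihood, Benjamini-Hochberg over all genes tested, adjusted p below 0.05), after the code was tested on simulated data. SE is the log2 fold change over the root of F, and 95% intervals are normal. DESeq2 1.42.0, other filters, covariates and left-out libraries were alternatives. Exon overlaps used the GENCODE annotation of GRCm38. The members and lists were chosen with earlier results of these data known. Full values were given for members called in any comparison, the 3 of smallest p in each, and 11 fixed genes (P2ry12, Tmem119, Cx3cr1, Csf1r, Trem2, Tyrobp, Cst7, Clec7a, Itgax, Axl and Spp1). The ratio to Csf1r used a pseudocount of 0.5. The ratios to Csf1r, the choroid plexus correlations, the border macrophage covariate and the unfiltered fit without Old PF4 replicate 3 were chosen after seeing the data.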

Additional observations from a re-analysis of the deposited data

Results flagged for a closer look

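Old PF4 was the 1 group of a size at which single samples were examined (10 libraries), over 29 named genes, and chance alone sets apart about 1 sample in 20 such groups. P2ry12 was set apart because the gap between Old PF4 replicate 8 and the next library was 0.481 of the group's whole range of log2 CPM, above the critical 0.466. That library had 92.1 CPM, where the other 9 lay between 58.6 and 74.1 CPM. It also had the lowest index of transcript-length bias of its group, -0.23 where the next was -0.07, and the lowest TMM factor, 0.952; their part in the value was not tested. For Cst7 the gap of Old PF4 replicate 3 was 0.475 of the range, with 7.68 CPM against 0.227 to 1.77 CPM in the other 9.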

How the results depend on the processing

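Over the 6 comparisons 243 recounts of the called members stayed within 1.5 times the reported count and 9 did not, and in each recount 0 members were called lower. In vehicle mice the count of 6 became 12 with an index of transcript-length bias as a covariate and 2 without the 8 libraries of lowest total. In PF4 mice the count of 5 became 3 without those 8 libraries and 2 with the 2 groups fitted alone, and ran from 3 (without Old PF4 replicate 3) to 8 (without Old PF4 replicate 8) when 1 library was left out. The averaged count of 21 became 12 with the choroid plexus score as a covariate, 12 with the border macrophage score (a covariate chosen after the data were seen) and 13 without the 8 libraries, and ran from 16 to 25 when 1 library was left out. DESeq2 called 8, 6 and 24 members in these comparisons. The 3 PF4 comparisons gave 0 members under every alternative. Spp1, at -0.36 in the averaged comparison, reversed to 0.051 with the border macrophage score. Cause was not tested for these shifts, beyond the smaller number of libraries in fits that leave some out.

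Over all genes, counts that moved by more than 1.5 times were, with age in vehicle mice, 901 (length index), 293 (border macrophage score) and 176 (without the 8 libraries) against 492, and in PF4 mice 39 (at least 10 counts in every library), 21 (2 groups alone), 90 (DESeq2), 98 (length index) and 90 (replicate block) against 59. The averaged count of 838 became 1398, 547 and 437 with the length index, the border score and without the 8 libraries. In Old mice the PF4 count of 6 became 24 with DESeq2, 10 with the choroid plexus score, 10 with the replicate block and 0 with the length index, the groups alone or without the 8 libraries, and the test between ages gave 1 gene with no count filter. Leaving out 1 library gave 36 to 91 with age in PF4 mice and 0 to 20 with PF4 in Old mice.

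Replicate numbers are shared between groups by name. Same-numbered libraries did not as a rule deviate together (r from -0.42 to 0.55, median -0.01, above 0.1 in 21 of 66 pairs). Libraries of different number were not compared, so this does not decide whether some numbers pair libraries. With the replicate block the members called were 7, 6 and 21 with age. Over all genes that fit stayed within 1.5 times of the 492 called in vehicle mice and the 838 called in the averaged comparison. Its count in PF4 mice is given above. Of the 21 averaged calls, those of Siglech, Lpl, Spi1 and Irf8 were lost in that fit (edgeR adjusted p of 0.0588 to 0.0787 with the replicate block), and Tmem119, Selplg, Tgfbr1 and Cd53 were called in their place. Genes with few reads, such as Cst7 and Itgax, are limited by depth.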
